A study of Mus musculus with 1 sample.

Results

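The genes of antigen presentation on MHC class I were examined in single alveolar macrophages (AMs), which live on the air side of the lung alveoli, of an adult WT mouse. The 9 genes were taken by name from the 11918 genes measured, with earlier results of these data known. They were B2m, H2-K1 and H2-D1, which encode the class I molecule itself (the class I core), Tap1, Tap2 and Tapbp, which encode the peptide transporter and tapasin, and Calr, Canx and Pdia3, which encode chaperones of the endoplasmic reticulum (ER). The study asked what the histone deacetylase HDAC3 does in AMs. The single library analysed here came from the control genotype, Hdac3 fl/fl without Cre, labelled wild-type, from mice of 8 to 12 weeks on an FVB/NJ background crossed back to C57BL/6 for 10 generations. CD45+CD11c+SiglecF+ cells were sorted from the lung, 5000 cells were loaded, and 3' single-cell RNA sequencing gave 2055 cells. Each transcript molecule was counted once through its unique molecular identifier (UMI). With 1 library there is no replicate, so that no difference below has a test between mice, and every interval is a 95% interval for counting error alone.

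MHC class I molecules show peptides from inside the cell to CD8+ T cells. A heavy chain, here H-2K or H-2D, folds in the ER with beta-2 microglobulin (B2m). Calnexin (Canx) holds the new heavy chain, and calreticulin (Calr) with the disulfide isomerase ERp57 (Pdia3) keeps the empty molecule in the peptide loading complex. There tapasin (Tapbp) bridges it to the transporter (Tap1 with Tap2), which pumps peptides made by the proteasome from the cytosol into the ER. Calr, Canx and Pdia3 also serve other glycoproteins and are part of the general folding machinery, whereas the other genes are known for their response to interferon. MHC class II, which shows peptides from the endocytic route to CD4+ T cells, is made by few AMs at rest.

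Of the 9 genes, 5 lie in the MHC region of chromosome 17 in GRCm38 (mm10), the build of the deposited values. The protein-coding genes H2-K1 (33996017 to 34000347, minus strand) and H2-D1 (35262730 to 35267499, plus strand) flank the interval that holds Tap1 (34187553 to 34197225) and Tap2 (34203527 to 34216321), both on the plus strand. Between the transporter genes lies Psmb8, an immunoproteasome subunit gene, and exons of Tap1 and of Psmb9, on the other strand, lie within an overlap of 212 bases. Tapbp (33915899 to 33929292, plus strand) overlaps Zbtb22 on the same strand by 3422 bases. The RefSeq start of H2-D1 used below lies 364 bases from that in GENCODE. B2m lies on chromosome 2 at 122147686 to 122153083, within Patl2 on the other strand without overlap of exons. Pdia3 lies on chromosome 2 at 121413775 to 121438687, Calr on chromosome 8 at 84841850 to 84846934 and Canx on chromosome 11 at 50293961 to 50325673. No 98-base sequence, the length of the second read, from the last 300 bases of a coding transcript of any of the 9 genes occurred in a transcript of another gene. Whether reads from an H2 region of the FVB/NJ strain map to this C57BL/6 reference equally well was not tested.

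The promoters are shown because the class I core genes and the chaperone genes Calr and Canx differ in the regulatory motifs at their starts. Sequences are those of RefSeq (GRCm38.p6), from 250 bases before the start to 50 after it, 5' to 3' on the strand of the gene, with matched motifs in capitals. RefSeq starts were found for 8 of the 9 genes. In B2m (chr2:122147437-122147736, plus strand) the capitals mark GAAACTGAAA, an interferon-stimulated response element (GAAA and GAAA at a spacing of 2 bases), and a CCAAT box on the reverse strand.
B2m: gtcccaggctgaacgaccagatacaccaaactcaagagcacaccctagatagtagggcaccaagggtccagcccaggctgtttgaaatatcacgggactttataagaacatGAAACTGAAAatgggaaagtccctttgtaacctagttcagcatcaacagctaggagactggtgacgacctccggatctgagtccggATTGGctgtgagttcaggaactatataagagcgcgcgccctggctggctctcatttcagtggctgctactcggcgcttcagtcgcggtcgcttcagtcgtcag
In H2-K1 (chr17:34000298-34000597, minus strand) and H2-D1 (chr17:35262844-35263143, plus strand) they mark, in order, an NF-kB site (GGGATTCCC), the interferon consensus core AANTGAAA on the reverse strand, the CRE-like site TGACGC, and 2 CCAAT boxes.
H2-K1: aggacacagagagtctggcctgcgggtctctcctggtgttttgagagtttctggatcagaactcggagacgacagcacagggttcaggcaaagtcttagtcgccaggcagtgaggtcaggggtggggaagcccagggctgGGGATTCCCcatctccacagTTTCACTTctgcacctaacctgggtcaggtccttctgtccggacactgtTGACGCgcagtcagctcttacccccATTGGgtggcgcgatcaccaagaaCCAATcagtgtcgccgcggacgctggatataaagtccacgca
H2-D1: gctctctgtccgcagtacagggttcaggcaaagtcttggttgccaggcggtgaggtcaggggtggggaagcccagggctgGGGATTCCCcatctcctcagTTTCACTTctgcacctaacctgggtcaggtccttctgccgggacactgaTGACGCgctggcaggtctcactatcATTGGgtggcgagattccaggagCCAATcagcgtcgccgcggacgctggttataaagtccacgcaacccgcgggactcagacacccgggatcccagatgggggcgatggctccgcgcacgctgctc
In Calr (chr8:84846882-84847181, minus strand) and Canx (chr11:50325624-50325923, minus strand) they mark only the ER stress response element (ERSE), a CCAAT box and CCACG at a spacing of 9 bases, which stands on the reverse strand in Calr.
Calr: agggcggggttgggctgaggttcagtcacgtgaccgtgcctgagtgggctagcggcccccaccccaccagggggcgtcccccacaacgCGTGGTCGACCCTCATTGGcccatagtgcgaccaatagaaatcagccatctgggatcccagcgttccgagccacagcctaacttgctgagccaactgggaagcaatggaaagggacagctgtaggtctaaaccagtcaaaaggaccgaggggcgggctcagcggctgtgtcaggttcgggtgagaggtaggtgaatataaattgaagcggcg
Canx: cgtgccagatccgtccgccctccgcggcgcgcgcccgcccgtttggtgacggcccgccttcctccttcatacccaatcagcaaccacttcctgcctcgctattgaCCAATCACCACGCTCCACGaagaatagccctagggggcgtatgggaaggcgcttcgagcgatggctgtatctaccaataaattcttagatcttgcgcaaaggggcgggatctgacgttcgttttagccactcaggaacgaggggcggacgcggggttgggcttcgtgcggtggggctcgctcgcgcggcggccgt
Aligned at the NF-kB site without gaps, the H2-K1 and H2-D1 windows shared 176 of 240 bases (73.3%), and the distance from the NF-kB site to the CRE-like site was 69 bases in both. Searched on both strands of all 32851 promoter windows, the ERSE occurred in 0.119%, the NF-kB site in 0.353%, the interferon-stimulated response element in 3.44%, AANTGAAA in 6.58%, TGACGC in 7.40% and CCAAT in 37.4%. The last of these was found in all 8 windows searched, and the CRE-like site also in that of Pdia3. In B2m the match of AANTGAAA lies within that of the longer element, and each ERSE holds a CCAAT. The match of a motif is a description of the letters and does not show that a factor binds there.

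The cells carried the AM markers. All 13 measured AM marker genes were present, at 237 UMIs per 10000 UMIs in sum, with Chil3 in 100% of cells, Ear2 in 98.8%, Mrc1 in 92.7% and Siglecf in 41.4%. Markers of dendritic cells (5 genes measured) were found in 28 cells (1.36%) and those of B cells (2 genes measured) in 9 cells (0.438%), and the 8 T or NK cell markers were not measured here. Markers of lung epithelium were found in 62.9% of cells, mostly through Epcam (58.1%, 3.02 per 10000), and those of neutrophils in 20.0% (S100a8 in 10.1%). Of the markers of interstitial macrophages or monocytes, Fn1 was found in 52.7% of cells, whereas C1qa, C1qb, Cx3cr1 and Ccr2 were each found in at most 1.36%. The library held 7222978 UMIs, 1143 to 8603 per cell, with a median of 3278 UMIs and 1454 genes. No doublet caller was run here, and the methods describe the removal of cells with very many genes as possible doublets, with 2495 genes the most in any cell of these data. The methods also describe a limit of 5% mitochondrial content, and 384 of the cells (18.7%) lay above it. For comparisons between cells, except where all UMIs are named, 2000 UMIs were drawn from each of the 1756 cells that had as many, so that depth was the same in all of them. Because the draw is random, ratios and correlations were also computed in 20 other draws, whose means and ranges are given.

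The class I core was abundant in AMs, B2m above all. B2m had 22784 UMIs, or 31.5 per 10000 (31.1 to 32.0), which placed it 29th of the genes measured, and it was found in 98.6% of cells (98.0 to 99.1%, exact Clopper-Pearson). H2-D1 had 12.1 per 10000 (11.8 to 12.3) in 93.8% of cells, and H2-K1 had 7.05 per 10000 (6.86 to 7.24) in 85.2% of cells. UMIs of a 3' assay count molecules without regard to gene length, so that these levels can be set against each other without a correction for length. All 3 genes were found together in 1641 cells (79.9%, 78.1 to 81.6%), and only 1 cell had none of them. Per cell, B2m ranged from 0 to 152 per 10000 with a median of 27.3, H2-D1 from 0 to 122 with a median of 10.9, and H2-K1 from 0 to 53.7 with a median of 6.19.

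**Figure D1:**
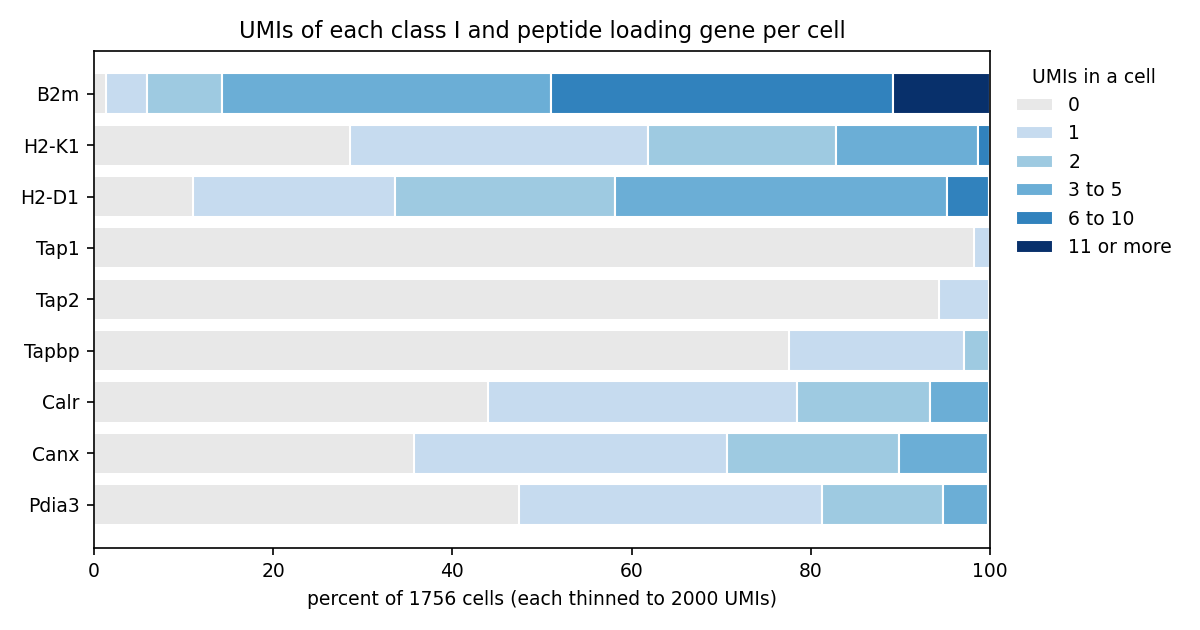
The bars give, for each gene, the percent of the 1756 cells, each thinned to 2000 UMIs, that held 0, 1, 2, 3 to 5, 6 to 10 or 11 or more of its UMIs. B2m was found in nearly every cell and reached 11 or more UMIs in 10.9% of cells, the chaperone genes were found in 52.6% to 64.3%, and Tap1 and Tap2 in 1.82% and 5.69%.

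The transporter and tapasin stood far below the chains they load. Tapbp had 1.24 per 10000 (1.16 to 1.32) in 33.9% of cells. Tap2 had 0.334 per 10000 (0.293 to 0.379) in 10.7% of cells, and Tap1, with 86 UMIs in the whole library, 0.119 per 10000 (0.0952 to 0.147) in 4.09% of cells. The 3 genes together gave 1.69 per 10000 against 50.7 for the class I core, and 4 cells held all of them. The intervals of Tap1, Tap2 and Tapbp did not overlap. RNA free in the droplets can leave single UMIs in cells that do not make a gene. Of 8 epithelial markers measured, Epcam (58.1%), Sftpc (6.86%) and Scgb1a1 (5.50%) were found in a larger share of the cells than Tap1, and 5 others in 0.146% to 1.41%. Epcam, at 3.02 per 10000 against 0.238 for Sftpc and 0.205 for Scgb1a1, is not read as a measure of free RNA. The part of free RNA in the Tap1 UMIs was not tested, and the cells that hold one were not treated as a class of their own.

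The chaperones lay between both groups and close to each other. Canx had 5.38 per 10000 (5.21 to 5.55) in 81.3% of cells, Calr 4.60 (4.45 to 4.76) in 73.1% and Pdia3 3.94 (3.80 to 4.09) in 70.3%. At least 1 of them was found in 97.2% of cells and all 3 in 46.1%. Their level was near that of H2-K1 and below those of Hspa5 (BiP) at 7.81 and Hsp90b1 (GRP94) at 10.3, the general chaperones of the ER. The order over all 9 genes was B2m, H2-D1, H2-K1, Canx, Calr, Pdia3, Tapbp, Tap2 and Tap1, and no neighbours in this order had overlapping counting intervals. The median cell held UMIs of 6 of the 9 genes (710 cells, 34.5%), no cell held none and 2 cells held all 9.

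The other class I chain genes and the immunoproteasome genes were scarcer than H2-K1. Of 24 other class I heavy chain and class I-like genes listed, 12 were measured. The highest were Fcgrt, the neonatal Fc receptor, at 1.73 per 10000, H2-T23 (Qa-1) at 0.962 and Cd1d1 at 0.660, and H2-Q7, H2-Q4 and H2-Q6 lay between 0.0720 and 0.134. The immunoproteasome subunits Psmb8, Psmb10 and Psmb9 had 1.71, 1.13 and 0.637, and the activator subunits Psme2 and Psme1 had 2.06 and 1.32. Psmb8 and Psmb9, next to the transporter genes, were thus above Tap1 and Tap2. The aminopeptidase Erap1 had 0.155, the tapasin-like Tapbpl 0.102 and Nlrc5, the transactivator of class I genes, 10 UMIs in all. Among class II genes, the chains H2-Ab1, H2-Aa and H2-Eb1 had 1.55, 1.53 and 0.649, each below H2-K1. They were gathered in fewer cells: H2-Ab1 was found in 19.2% of cells where an even spread of its UMIs over cells would give 40.6%, while H2-K1 was found in 85.2% where an even spread would give 87.2%.

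The UMIs of B2m varied more between cells than counting alone gives. In thinned cells the variance of its UMIs was 2.49 times their mean, and 97.8% of the 1738 genes with at least 300 UMIs had a lower value (median of all 1.05, 95th percentile 1.49). The values were 1.30 for H2-K1, 1.24 for H2-D1, 1.13 for Calr, 1.09 for Canx, 1.08 for Pdia3 and 1.02 for Tapbp, all below that 95th percentile. This measure grows with abundance. The variance above the mean divided by the squared mean, which does not, was 0.245 for B2m, 0.217 for H2-K1, 0.102 for H2-D1, 0.148 for Calr, 0.0876 for Canx, 0.0989 for Pdia3 and 0.0602 for Tapbp (median of all 0.102), so that B2m and H2-K1 were close on this scale. The balance of the chains, over all UMIs, also varied. H2-K1 made up 36.9% (36.0 to 37.7%) of the UMIs of both heavy chains, and over cells the squared deviation from this share was 1.20 times the binomial value. B2m had 1.65 UMIs for each heavy chain UMI, or 62.3% (61.8 to 62.8%) of the class I core. In the 1493 cells with at least 10 core UMIs this share ran from 10.0% to 100% with a median of 62.5% and quartiles of 52.8% and 71.4%, and the squared deviation was 1.60 times the binomial value.

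Correlations between the 9 genes from cell to cell were weak at this depth. Across the 1756 thinned cells of this library, whose UMIs share a single preparation, Pearson's r of the log values lay between -0.0962 and 0.127 for the 36 pairs, with a median of 0.00559 and 23 pairs above 0. For scale, the 1st and 99th percentiles over 3438753 pairs of the 2623 genes found in at least 10% of cells were -0.0588 and 0.0623. Correlations this small in sparse counts carry little information, and 30 of the pairs changed sign between draws. B2m and H2-D1 had the highest r of the 36, 0.127, with a mean of 0.148 and a range of 0.124 to 0.173 over draws. This lies above the value that 1 in 1000 of all pairs exceeded (0.0962), but B2m had high values with many genes. Among 2622 genes ordered by r with B2m, H2-D1 was 29th and H2-K1 274th. B2m and H2-K1 had a mean of 0.0385 (0.00885 to 0.0686) and both heavy chains a mean of 0.0437 (0.0149 to 0.0767). All 3 pairs within the core were above 0 in 20 of 20 draws. Calr and Canx (mean 0.0564) and Canx and Pdia3 (mean 0.0358) were also above 0 in 20 draws, and Calr and Pdia3 (mean 0.0429) in 19. B2m and Canx had the lowest r, with a mean of -0.0825 (-0.104 to -0.0452), below 0 in each draw. The transporter subunits Tap1 and Tap2 were found together in 1 thinned cell, where independence would give 0.104% of cells.

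**Figure D2:**
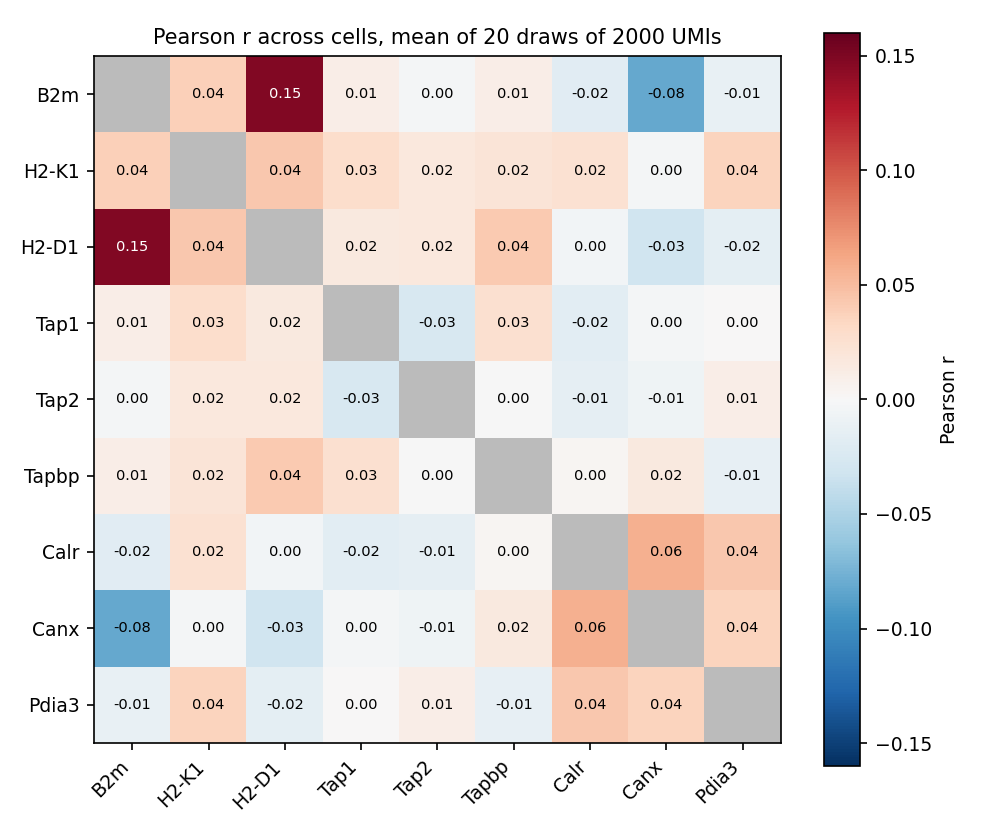
Each square gives Pearson's r between a pair of genes across the 1756 cells, as the mean of 20 draws of 2000 UMIs per cell, and gray marks a gene with itself. B2m with H2-D1 (0.148) and B2m with Canx (-0.0825) stand at the ends of the scale, and the other squares lie close to 0.

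The genes most alike to B2m were abundant AM transcripts, not the other 8 genes. By r over the same cells they were Lyz2 (0.363), Cd9 (0.330), Ctss (0.249), Fcer1g (0.247) and Chil3 (0.209), and the first 4 were among the top 5 in 20 of 20 draws. They encode lysozyme, a tetraspanin, the lysosomal protease cathepsin S, the Fc receptor gamma chain and a chitinase-like protein. H2-D1 shared 3 of these, with Ctss at 0.143, Cd9 at 0.119 and Lyz2 at 0.119, and B2m itself was the second at 0.127. These 4 were in its top 5 in all 20 draws. The genes least like B2m were Cd44 (-0.200), Malat1 (-0.165) and Rplp1 (-0.164). For H2-K1 the highest values were under 0.1 and none of its top 5 recurred in more than 9 draws. For Calr the most alike gene was Hspa5 (0.118, in the top 5 in 17 of 20 draws), and for Pdia3 the recurring genes were Hsp90b1 (0.0729, 13 draws) and Hspa5 (0.0849, 9 draws). Canx had Pdia6, another disulfide isomerase, at 0.103 and the actin gene Actg1 at 0.0968, each in 7 draws, with means of 0.0776 and 0.0798. The lists of Tap1, Tap2 and Tapbp did not recur, with none of the top 5 genes of each in more than 6 draws. Only genes in the top 5 of the reported draw were followed in the other draws. Values across genes of unequal abundance are not alike in precision, since r is pulled toward 0 in scarce genes.

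Cells in which MHC class II transcripts were detected had more class I core RNA. In thinned cells, 399 (22.7%) held at least 1 UMI of the class II chains H2-Aa, H2-Ab1 or H2-Eb1 and 1357 held none. The class I core was at 55.4 per 10000 (53.7 to 57.0) in the former and 47.6 (46.8 to 48.4) in the latter, a ratio of 1.16 (1.12 to 1.20), with 1.15 to 1.23 over draws. B2m was at 34.3 against 29.4 (ratio 1.17, 1.12 to 1.22), H2-K1 at 8.13 against 6.55 (1.24, 1.13 to 1.36) and H2-D1 at 12.9 against 11.7 (1.11, 1.03 to 1.19), each above 1 in 20 of 20 draws. Of the 399 cells 221 held 1 chain UMI, and the part of free RNA in these was not tested. With a limit of 2 chain UMIs the core ratio was 1.28 (1.22 to 1.34). The chaperones differed less at the limit of 1 UMI, at 13.9 against 13.5 (1.03, 0.962 to 1.10, with 0.944 to 1.05 over draws). Transporter and tapasin together had 1.82 against 1.62 (1.12, 0.925 to 1.36), an interval that holds both no difference and the ratio of the core, and Tap1 rested on 6 and 26 UMIs. Of the 7 genes of the 9 with at least 300 UMIs in thinned cells, 0 were past the fold limit upward (25% higher or more) and 0 downward (a ratio of 0.8 or less), against 2.59% and 2.94% of 1736 genes. Over all genes these shares were 45 and 51 genes, and 20 other draws gave 25 to 44 higher and 41 to 65 lower. The median ratio of the 7 genes was 1.11 and that of all genes 0.990. B2m lay above 93.4%, H2-K1 above 96.9% and H2-D1 above 86.0% of all genes. Tapbp, with a ratio of 1.17 (0.936 to 1.45), lay above 93.0%, but it ranged from 0.872 to 1.23 over draws. Detection barely differed, since B2m was found in 98.5% and 98.7% of the cells of both sets, and H2-D1 in 91.5% and 88.3%.

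The difference grew with the number of class II UMIs. B2m was at 29.4, 30.7, 33.0, 41.8 and 79.5 per 10000 in cells with 0, 1, 2 to 3, 4 to 9 and 10 or more class II chain UMIs, and H2-K1 at 6.55, 7.22, 8.29, 9.58 and 17.3. H2-D1 had 11.7, 12.5, 13.2, 13.1 and 15.9, while the chaperones together had 13.5, 14.0, 13.8, 14.0 and 12.3. Within the last class Canx was at 2.27 (0.738 to 5.30), Calr at 5.45 and Pdia3 at 4.55. Transporter and tapasin had 1.62 (1.47 to 1.78), 1.74, 1.62, 1.95 and, from 10 UMIs, 4.55 (2.18 to 8.36). Single cells overlapped widely. The median thinned B2m value was 25 per 10000 in each of the 3 lowest classes, with highest values from 110 to 160, and 35 in the 59 cells with 4 to 9. The last class held 11 cells, in which B2m over all UMIs ran from 9.56 to 152 per 10000. Of these, 4 were among the 21 cells (the lowest 1%) with the least AM marker RNA, at most 100 per 10000 against a median of 227 elsewhere. The 11 cells held 36.7% of all class II chain UMIs. Without the 21 cells the core ratio was 1.15 and without the cells with 10 or more chain UMIs 1.13 (1.09 to 1.17). It was 1.12 (1.07 to 1.17) without cells with at least 2 UMIs of markers of other cell types, where H2-D1 alone had 1.03 (0.929 to 1.13). That removed many cells through Fn1 and kept 1074, and with Fn1 not counted 1650 cells were kept, with a core ratio of 1.15 (1.11 to 1.19) and 1.10 (1.02 to 1.18) for H2-D1. Over all UMIs of all cells, in the 21 cells B2m was at 52.4 per 10000 against 31.4 in all others (1.67, 1.49 to 1.86), and the part of other cell types in these values was not tested.

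**Figure D3:**
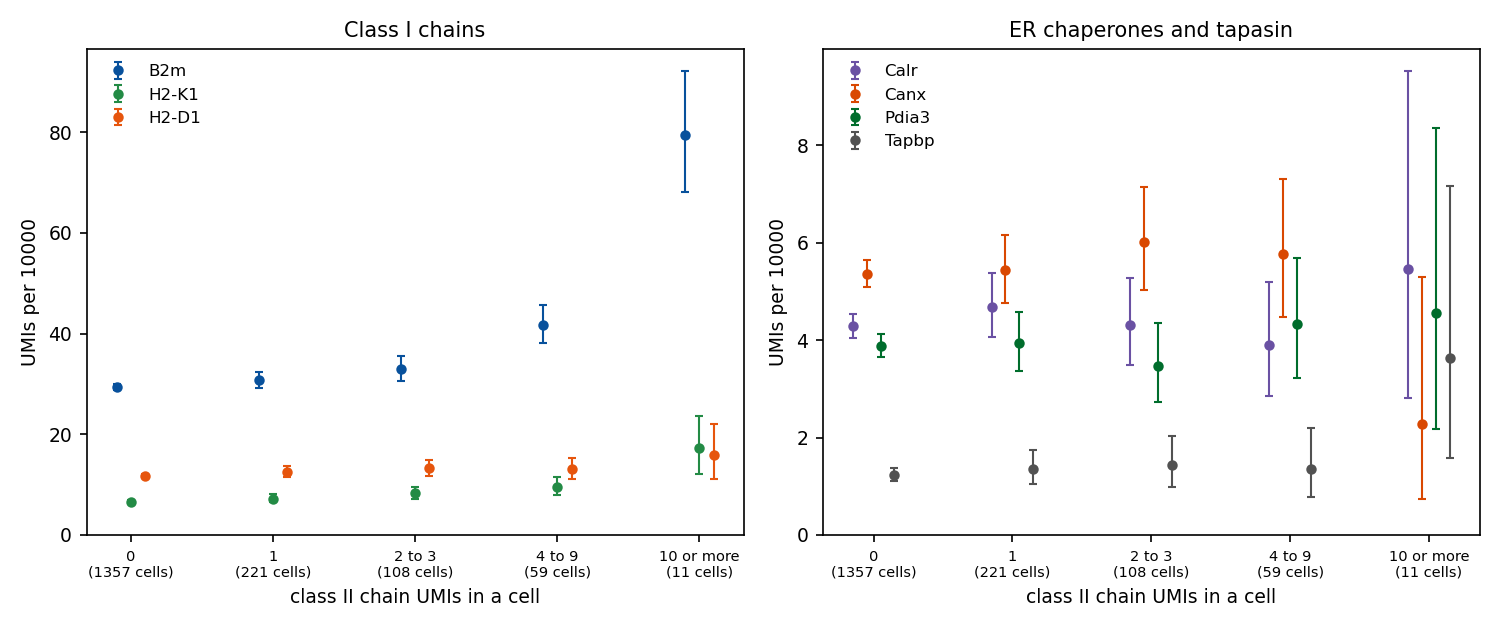
Points give UMIs per 10000 (thinned cells pooled) in cells with 0, 1, 2 to 3, 4 to 9 and 10 or more class II chain UMIs, and bars give exact 95% Poisson intervals for counting error. B2m and H2-K1 are higher with more class II UMIs, to 79.5 and 17.3 in the last 11 cells, while the bars of Calr, Canx, Pdia3 and Tapbp overlap across most classes.

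Read the other way, class II detection was most frequent in the cells with most class I RNA. In 4 sets of 439 thinned cells ordered by class I core UMIs, class II chains were found in 18.2% (14.7 to 22.2%), 22.6% (18.7 to 26.8%), 18.7% (15.1 to 22.6%) and 31.4% (27.1 to 36.0%). Cd74, the invariant chain, was found in 22.8%, 26.0%, 22.3% and 35.1%. The intervals of the first 3 sets overlapped, and the last lay above the others. With each class II gene on its own, the B2m ratio was 1.22 by H2-Aa, 1.21 by H2-Ab1, 1.33 by H2-Eb1 and 1.21 by Cd74, and the H2-K1 ratio was 1.38, 1.20, 1.39 and 1.20. Of the genes of the immunoproteasome and its activator, Psmb10 (1.29, 1.02 to 1.63) and Psme2 (1.31, 1.11 to 1.54) were past the fold and Psmb8 (1.11, 0.907 to 1.34) and Psme1 (1.01, 0.798 to 1.26) were not, which makes 2 of 4 against 2.59% of all genes. The aminopeptidase gene Npepps was lower (0.713, 0.525 to 0.955). Depth before thinning (median 3716 against 3491 UMIs), mitochondrial content (median 3.20% in both) and AM marker RNA (235 against 225 per 10000) were near each other in both sets.

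Interferon-induced genes, such as Isg15, were scarce. Of 30 listed genes 25 were measured, at 2.58 per 10000 in sum, so that the highest 10% of cells, with ties, took in all 637 thinned cells with at least 1 UMI. Between these and the other 1119 cells the class I core was at 49.9 and 49.0 per 10000 (1.02, 0.985 to 1.05, with 0.974 to 1.07 over draws). B2m had a ratio of 1.03 (0.990 to 1.07), H2-K1 1.03 (0.947 to 1.12) and H2-D1 0.977 (0.916 to 1.04). With all UMIs the highest 10% of cells were taken by the share of list UMIs in a cell, which is a narrower set. Depth was also unequal there, and the core ratio was 1.11 (1.07 to 1.15). Of the 7 genes compared, 0 were past the fold in either direction, against 1.27% higher and 0.633% lower of 1738 genes. The 35 cells with 3 or more UMIs of the list stood apart, with the core at 63.4 per 10000 (57.7 to 69.6), B2m at 42.4 (37.7 to 47.5) and transporter with tapasin at 3.29 (2.08 to 4.93), whereas cells with 0, 1 and 2 UMIs had the core at 49.0, 49.5 and 47.4. Of the heavy chains, H2-D1 was not higher, at 12.0 (9.57 to 14.9) in those 35 cells and 12.0 in cells with 0. H2-K1 was higher, but its intervals overlapped (6.92 to 11.5 against 6.50 to 7.19), so that the higher core lay mostly in B2m. The chaperones were at 13.3 in those 35 cells and 13.7 in cells with 0. This limit was chosen after the values were seen. Pooled class II UMIs differed by the broader division, with ratios of 1.69 (1.41 to 2.02) for H2-Ab1, 1.53 (1.27 to 1.83) for H2-Aa and 1.47 (1.34 to 1.61) for Cd74. The intervals leave out that few cells hold many of these UMIs. The 11 cells with 10 or more class II chain UMIs held 485 of the 1900 thinned Cd74 UMIs, and the ratios without them were not computed.

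The chaperones went with the general ER chaperones. The 15 listed genes, among them Hspa5, Hsp90b1, Pdia4, Pdia6, Manf and Xbp1, were all measured and contain none of the 9 genes. In the 247 cells highest in their sum (13 or more UMIs), Calr was at 5.71 per 10000 against 4.11 in the other 1509 cells (1.39, 1.22 to 1.58), Pdia3 at 4.80 against 3.73 (1.29, 1.11 to 1.48) and Canx at 6.36 against 5.25 (1.21, 1.07 to 1.37). The 3 together were at 16.9 against 13.1 (1.29, 1.19 to 1.39, with 1.24 to 1.47 over draws). The class I core did not differ so, at 49.9 against 49.2 (1.01, 0.971 to 1.06), and transporter and tapasin had a ratio of 1.07 (0.842 to 1.35). Calr and Pdia3 were thus 2 of 7 genes higher by the fold, against 4.70% of 1725 genes, and 0 were lower, against 5.39%. Calr lay above 98.9% of all genes and Pdia3 above 97.1%. Sec61b, a subunit of the ER translocation channel, was also past the fold (1.26, 1.13 to 1.41). Class II genes had lower pooled values in the same cells, with ratios of 0.739 for Cd74, 0.697 for H2-Ab1 and 0.579 for H2-Aa. These ratios can rest on few cells, since the 11 cells with 10 or more class II chain UMIs held 485 of the 1900 thinned Cd74 UMIs. They were not computed without those cells, and no difference of class II genes is read from them.

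In cells in division the chaperones made up a smaller share of the UMIs, most of all Calr. Cells were taken as in division where 12 cell cycle genes such as Mki67 and Top2a gave at least 3 UMIs after thinning, which held for 94 cells (5.35%). Calr was at 2.07 per 10000 in them and 4.46 in the other 1662 cells (0.465, 0.329 to 0.639), and was found in 31.9% against 57.3% of cells. Pdia3 was at 2.61 against 3.95 (0.660, 0.486 to 0.878) and Canx at 3.78 against 5.50 (0.687, 0.534 to 0.871). The 3 together were at 8.46 against 13.9 (0.608, 0.516 to 0.712, with 0.502 to 0.662 over draws). The core was closer to 1, at 44.4 against 49.6 (0.894, 0.833 to 0.959), with B2m at 0.870 (0.794 to 0.951), H2-D1 at 0.914 (0.790 to 1.05) and H2-K1 at 0.968 (0.802 to 1.16). With all UMIs B2m was at 1.02. There depth was unequal, and the limit of 3 UMIs, applied without thinning, also took in further cells. At 2500 UMIs per cell B2m was at 0.786 (0.722 to 0.854) and H2-D1 at 0.786 (0.682 to 0.901). Calr, Canx, Pdia3 and Tapbp were 4 of 7 genes lower by the fold, but so were 26.9% of 1738 genes, and 0 were higher against 16.3%. Tapbp (0.610, 0.338 to 1.02) rested on 15 UMIs in the cells in division and ranged from 0.596 to 1.13 over draws. Of all genes, 1.21% had a ratio below that of Calr, 9.90% below that of Pdia3 and 12.4% below that of Canx, and the median gene was at 0.955.

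Calr and Hspa5 were lower from 3 cell cycle UMIs on, with no clear grade beyond that. Calr was at 4.44, 4.61, 2.64 (1.76 to 3.82) and 1.34 (0.670 to 2.40) per 10000 in cells with 0, 1 to 2, 3 to 7 and 8 or more cell cycle UMIs. Hspa5 was at 8.01, 7.35, 4.81 (3.58 to 6.33) and 4.15 (2.87 to 5.79). For both genes the intervals of the classes with 3 to 7 and 8 or more overlapped. Canx was at 5.50, 5.44, 3.87 and 3.66, and Pdia3 at 4.00, 3.59, 2.83 and 2.32, while H2-D1 was at 12.0, 11.7, 9.53 and 12.8. B2m was at 30.4 (29.8 to 31.1), 32.7, 29.0 and 23.8 (20.6 to 27.4), lower in the last class. Of 13 ER stress chaperone genes compared, 7 were lower by the fold, against 26.9% of all genes (Hspa5, Pdia6, Sdf2l1, Dnajb9, Manf, Dnajc3 and Herpud1), whereas Hsp90b1 (0.907, 0.775 to 1.06) and Pdia4 (0.980, 0.621 to 1.48) were not. In the other lists, 5 of 6 class II pathway genes and 5 of 8 other class I pathway genes were lower. The latter list includes the immunoproteasome genes, of which 3 of 4 were lower (Psmb8, Psmb10 and Psme2), beside Sec61b and Sec61g. The cells in division had more UMIs before thinning (median 4486 against 3500) and less AM marker RNA (160 against 230 per 10000), and the part of these in the values was not tested. Tap1 had 6 UMIs in the cells in division and 26 in the others (ratio 4.08, 1.37 to 10.1, but 0.686 to 4.37 over draws). Tap2 had 7 and 95 UMIs (1.30, 0.510 to 2.79), with a mean of 1.76 and a range of 1.07 to 2.48 over draws.

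**Figure D4:**
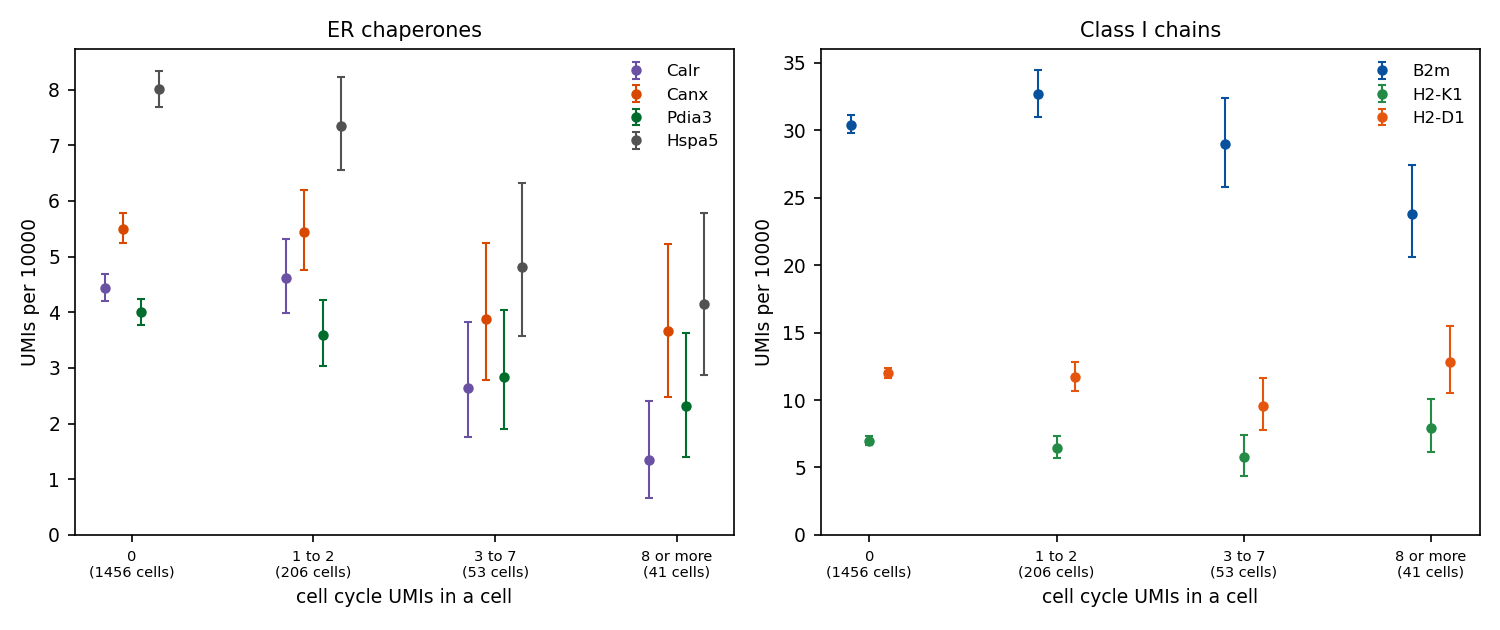
Points give UMIs per 10000 (thinned cells pooled) in cells with 0, 1 to 2, 3 to 7 and 8 or more cell cycle UMIs, and bars give exact 95% Poisson intervals for counting error. Calr is at 1.34 and Hspa5 at 4.15 in the 41 cells of the last class, B2m is lowest there at 23.8, and H2-K1 and H2-D1 show no order over the classes.

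Cells rich in chemokine and cytokine RNA differed little in these genes. In the 200 cells highest in 8 genes such as Cxcl2, Ccl4 and Tnf (9 or more UMIs), the core was at 49.9 per 10000 against 49.3 (1.01, 0.967 to 1.06), B2m had a ratio of 0.975 (0.917 to 1.04), H2-K1 of 1.20 (1.06 to 1.35) and H2-D1 of 1.01 (0.915 to 1.11). The chaperones together had 1.08 (0.985 to 1.17) and Calr alone 1.20 (1.03 to 1.40). Of the 7 genes compared, 0 were higher by the fold against 7.39% of 1733 genes, and 1, Tapbp (0.759, 0.534 to 1.05, from 40 UMIs), was lower against 11.0%.

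**Figure D5:**
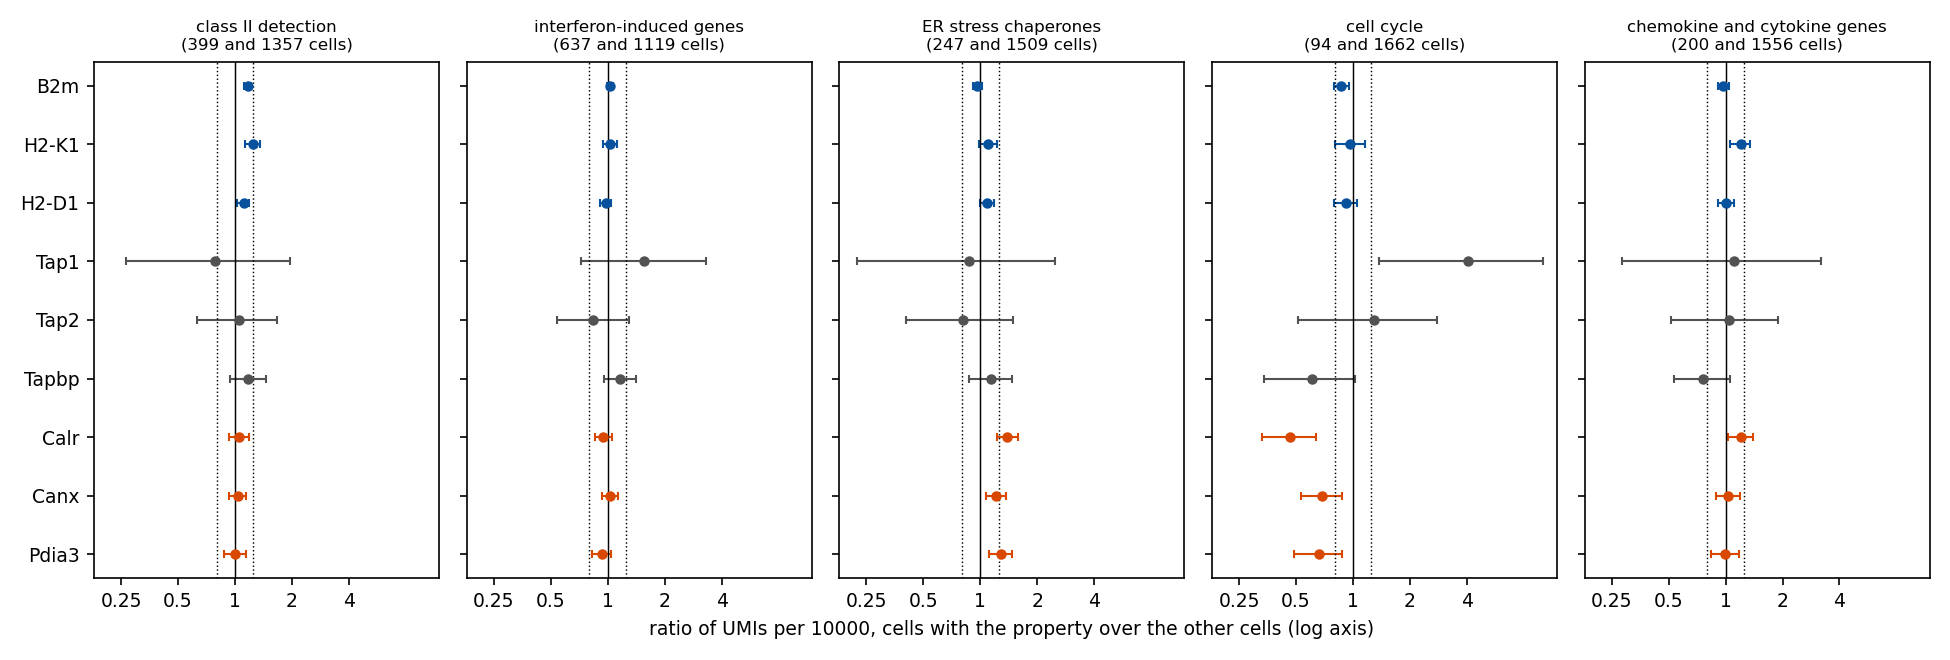
For each of the 5 divisions of the cells, points give the ratio of UMIs per 10000 between the cells with the property and the other cells, with exact 95% intervals for counting error, on a log axis. Solid lines mark 1 and dotted lines the fold limits. The core (blue) is above 1 with class II detection, the chaperones (orange) are above 1 with ER stress chaperones and below 1 with cell cycle genes, and the scarce genes Tap1, Tap2 and Tapbp (gray) have wider intervals.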

How the data were processed

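UMIs of sorted AMs from 1 WT library were analysed. The authors aligned reads to mm10 with Cell Ranger and, with Seurat, deposited values on a natural log scale, ln(1 + UMIs scaled to 10000 in each cell). They also deposited a scaled score per gene and cell after regression, which was used only for alternative correlations. Whole UMIs were recovered from the log values (100% of 3052476 values above 0 were whole multiples within 0.01). The 9 genes, the lists and the divisions of cells were chosen with earlier results of these data known. Genes named outside the 9 belong to these lists or are the 5 most alike and 3 least alike by r, with the exceptions said in the text.

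Cells with at least 2000 UMIs were thinned to 2000 without replacement. UMIs were pooled per set of cells. Levels have exact Poisson, shares exact Clopper-Pearson and ratios exact conditional binomial intervals at 95%. These treat UMIs as independent and cover counting error only. Genes with at least 300 UMIs in the thinned cells were compared, and the fold limit (25% higher, or a ratio of 0.8 or less) marks a size, not a test. The highest 10% of cells by a list includes ties. Correlations used ln(1 + UMIs per 10000). Detection is limited by depth: 3 UMIs over all cells, the limit for a gene with 0, is 0.00415 per 10000. Loci came from GENCODE M21 and promoters from RefSeq. Comparisons and correlations were tested on simulated data. Python 3.11.15, numpy 2.4.6, scipy 1.17.1 and pandas 2.3.3 were used. Alternatives covered depth, the draw, cells, the class II rule, the minimum and the measure of correlation. The cells lowest in AM markers, cells with 10 or more class II chain UMIs, Fn1 as a marker, higher limits for the interferon list and 20 draws were examined after seeing the data.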

Additional observations from a re-analysis of the deposited data

How the results depend on the processing

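No paired analysis was possible because there is 1 library. Of 370 alternative values computed, 340 stayed within the counting interval or tolerance of the reported value, 29 moved beyond it and 1 changed direction. This was the B2m ratio of cells in division, 0.870, which was 1.02 with all UMIs, where the limit of 3 cell cycle UMIs took in further cells. The tolerance for correlations was 0.05, as large as the reported medians (0.0506, 0.0483 and -0.0147). Intervals of scarce genes were wide, such as 0.264 to 1.95 for Tap1 by class II detection. For these values, staying within the limit says little, and the 340 are not read as a measure of stability. Thinning lowered detection of all 3 core genes to 62.9% and gave a core level of 49.3 per 10000, and the mean over cells gave 49.1. With counting variance removed the median correlations were 0.472 in the core and 0.586 among the chaperones. These have no upper limit at 1 and are not read as correlations. The core ratio with class II detection was 1.12 without cells with markers of other cell types and 1.28 with a limit of 2 chain UMIs. The chaperone ratio with class II was 0.956 in another draw. The core ratio with interferon-induced genes was 1.11 with all UMIs, 1.09 at 2500 UMIs per cell and 1.29 at 3 or more list UMIs. The chaperone ratio with ER stress chaperones was 1.44 with all UMIs and 1.40 at 1500. With all UMIs both of these lists were cut by the share of list UMIs in a cell, so that the sets of cells also differed. Genes past the fold by class II detection were 45 higher and 51 lower. In 20 other draws they were 25 to 44 higher (mean 34.1) and 41 to 65 lower (mean 52.6). These genes became 2467 and 2129 with no minimum, 8 and 3 at 1000 UMIs, and 74 and 125 with 2 chain UMIs. They became 25 and 25 with the chains or Cd74, 29 higher with Cd74 alone and 78 lower with all UMIs. The cause was not tested. With 1 library there is no spread between mice, and the ratios of Tap1 and Tap2 had wide intervals at this depth.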
